A study of Arabidopsis thaliana with 8 samples.

Results

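The loading of mRNAs on polysomes after heat was measured as the difference, on the log2 scale, between polysome-bound RNA (PB38) and total RNA (TOT38) of heat-stressed Arabidopsis thaliana seedlings, hybridized to ATH-1 arrays. The comparison uses 4 of the 8 arrays of the study and 2 of its 4 seedling samples, chosen as the PB38 and TOT38 arrays of replicates 1 and 2 and paired by replicate. All seedlings were 7-day-old wild-type Columbia-0 (Col-0). The heat-stressed seedlings were incubated at 38°C for 45 min, and the control seedlings (TOT22 and PB22, 4 arrays) came straight from the growth chamber at 22°C. Total RNA was taken from the crude extract of each seedling sample, and polysome-bound RNA from pooled fractions 11 to 16 of the sucrose gradient loaded with the same extract. The extraction buffer held cycloheximide and chloramphenicol, which hold cytosolic and organellar ribosomes on their mRNAs. Whole seedlings were ground, so each value averages over all their cell types, and fewer cells of a type and less RNA per cell cannot be told apart.

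In eukaryotic cells an mRNA that is being translated carries several ribosomes and sediments deep in a sucrose gradient, whereas an mRNA with no ribosome or a single one stays near the top. Heat is known to reduce initiation of translation, so that polysomes shrink while part of the mRNA pool is kept in ribosome-free particles. Mitochondria and chloroplasts translate their own mRNAs on ribosomes of bacterial type, and a whole-cell gradient collects these as well as the cytosolic polysomes.

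The deposited PB38 values carry a factor for the lower polysome content after heat, whose log2 is -0.84 in replicate 1 and -0.89 in replicate 2. It was subtracted, so that a loading of 0 means that an mRNA was on polysomes as often as the array average at that temperature, not that its loading was unchanged by heat. Array means, deposited as 5.30 and 5.25 in PB38, were 6.14 and 6.14 after this step, against 6.14 to 6.17 on the other 6 arrays. Of the probe sets tested, 22746 in number, 13513 had 1 gene in the annotation, and these cover 13350 genes, 88.4% of them named by their locus tag alone. The markers with a named probe set showed both green tissue and roots: the 10 nuclear photosynthesis genes of 57 listed had TOT38 medians of 13.2 and 13.3, and the root hair expansins EXPA7 and EXPA18, 2 of 11 root markers, had TOT38 signals of 5.89 to 7.11. The 25S rRNA probe set, which reports carry-over of ribosomal RNA into the labelled sample, read 11.96 and 12.23 in TOT38, 10.20 and 10.97 in PB38, and 6.83 and 6.46 in PB22. Its part in the loadings was not tested.

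Most mRNAs were loaded alike at 38°C. The median over probe sets was 0.00 with an SD of 0.35, and 86.7% of probe sets lay within 0.5 of the array average on the log2 scale. The whole range ran from -2.96 to 1.61. The 2 seedling samples had a correlation of 0.71 across probe sets (a description, since probe sets are no replicates), and their loadings differed by a median of 0.18. At 22°C the SD was 0.27 and the correlation between replicates 0.63. Limma with the seedling sample as block, fitted over all 8 arrays, gave a median standard error of 0.12 for a loading at 38°C.

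A loading was called where limma's adjusted p was under 0.05 and its size at least 2-fold. By this rule 70 probe sets were higher than the array average on polysomes at 38°C (0.308% of those tested) and 300 were lower (1.32%). Without the fold limit 2578 were higher (11.3%) and 2354 lower (10.3%). Over the 13350 genes the counts were 41 higher (0.307%) and 179 lower (1.34%) at 2-fold, and 1341 higher (10.0%) and 1393 lower (10.4%) at any size. All 370 called probe sets had the same sign in both replicates, which the calling rule largely fixes with 2 replicates, and 223 of them had 1 gene. The values nearest to the limit among the called genes were 1.00 and -1.01. Without either PB38 array limma called 0 higher and 0 lower, with 5941 and 5127 probe sets at an unadjusted p under 0.05. Such a fit has 1 heat-stressed seedling sample left and takes its spread from the 22°C arrays. It can therefore neither show nor exclude that the calls are stable, and why the counts fell was not tested. Without the block limma called 21 higher and 145 lower.

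The direction of each loading is set against the array average and turns with the scaling. With the polysome-content factor kept, every loading at 38°C moves by -0.87 on the log2 scale, and 0 probe sets were called higher and 6984 lower. When the poly-A spike-in controls set the scale, which were dimmer in PB38 (5.98 and 6.14) than in TOT38 (7.10 and 6.73), the median loading moved by 0.86, and 6946 were called higher and 17 lower. Centring on medians and cyclic loess moved the median by -0.03 and 0.00, with 62 and 72 called higher and 329 and 300 lower. Order among genes is not touched by the first 2 scalings, and directions below are relative to the array average.

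**Figure D1:**
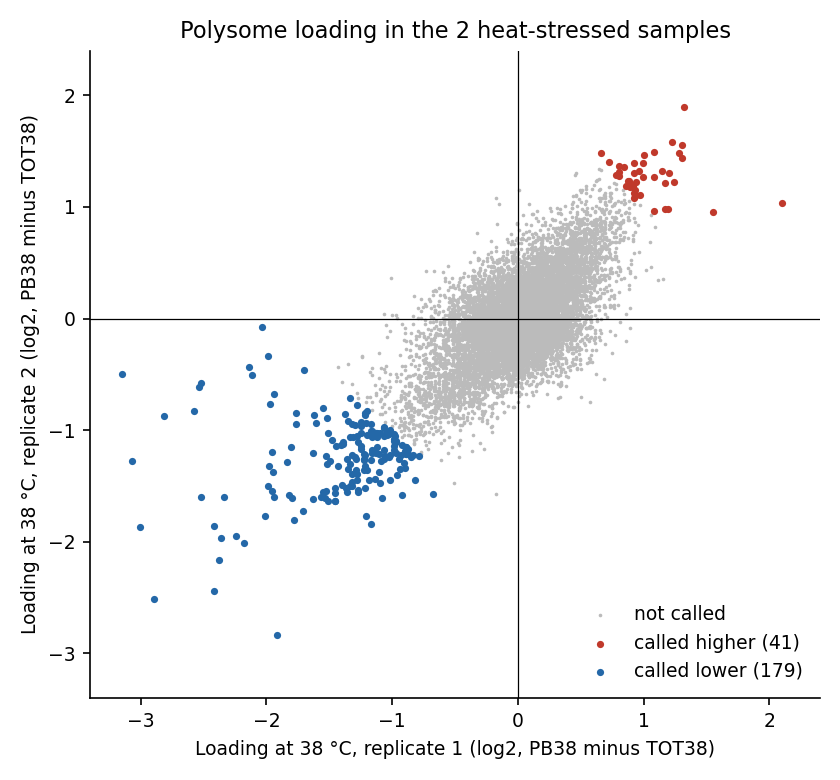
Polysome loading at 38°C of 13350 genes in replicate 1 (x axis) and replicate 2 (y axis), both on the log2 scale as PB38 minus TOT38 with the polysome-content factor removed. Genes called by limma are red (41 higher) and blue (179 lower). They lie in the quadrants where both replicates have the same sign, which the calling rule largely fixes. The lower tail reaches farther from 0 than the upper one.

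Called mRNAs tended to lean the same way at 22°C, where the array average is that of the control arrays. Of the 70 probe sets higher at 38°C, 68 were above 0 at 22°C, with a median of 0.67 there and 1.09 at 38°C. Of the 300 lower ones, 277 were below 0 at 22°C, with medians of -0.60 and -1.22. At 22°C limma called 8 probe sets higher (0.0352%) and 156 lower (0.686%) by the same rule, and 3 of the 70 and 76 of the 300 were among these. The difference between both loadings (38°C minus 22°C) was tested in the same fit. It was above 0 for 86 probe sets (0.378%) and below 0 for 206 (0.906%) at an adjusted p under 0.05, and over genes for 45 (0.337%) and 124 (0.929%). Without the block, or without either PB38 array, limma called 0 differences in each direction, with 1310, 3913 and 2981 probe sets at an unadjusted p under 0.05. Without PB22 replicate 1 the counts were 251 and 328. With the factor kept the differences move by -0.87, and scaled to the spike-ins their median moves by 0.85, so their direction too is relative to the average.

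Among the 24 lists with at least 3 named genes, plastid-encoded genes had the lowest median loading. The methods do not state how RNA was primed for labelling. Whether plastid and mitochondrial mRNAs were labelled like nuclear ones was not tested. Of 69 plastid-encoded genes 28 were called lower and 0 higher, and 51 passed the adjusted threshold below the average at any size. Among all genes 1.34% were called lower and 10.4% passed below at any size. The median loading of the plastid genes was -0.79, against -0.01 over all genes, with -1.01 in replicate 1 and -0.58 in replicate 2. Scaled to the spike-ins this median was 0.07. The loading of 68 of the 69 was below 0, the exception being psaB, a core subunit of photosystem I, at 0.01. Total signal of these genes was brighter in TOT38 replicate 1 than in replicate 2 for 60 of the 69, by a median of 0.34, while PB38 differed by a median of 0.06. The part of this difference between the seedling samples in the loading was not tested.

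The lowest loading among all named genes was that of petL, a small subunit of the cytochrome b6f complex, which passes electrons between the photosystems. Its TOT38 signals were 7.49 and 7.15 and its PB38 signals 4.59 and 4.63. Both polysome-bound values lay under both total values, and the loading was -2.71 on the log2 scale (SE 0.37, n = 2 seedling samples, adjusted p = 0.0012 from limma), or 6.53-fold lower than the average. For petG, another small subunit of the complex, TOT38 read 7.28 and 5.92 and PB38 4.27 and 4.05, a loading of -2.44 (SE 0.29, adjusted p = 0.000634 from limma). The groups did not overlap for petG either, but its total signals were far apart, and replicate 1 gave -3.01 and replicate 2 gave -1.87.

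psbA encodes the D1 protein of photosystem II, a subunit with a fast turnover in light. It read 10.09 and 10.10 in TOT38 and 8.17 and 7.26 in PB38, a loading of -2.38 (SE 0.23, adjusted p = 0.0003 from limma). Here the total signals were alike and the polysome-bound ones differed. psbT, a small subunit of photosystem II, read 8.10 and 6.30 in TOT38 and 5.03 and 5.02 in PB38, and its loading of -2.17 had a wide error (SE 0.47, adjusted p = 0.00998 from limma). At 22°C the loadings of petL, petG, psbA and psbT were -2.33, -2.09, -2.02 and -1.38, and none of these 4 differed from 38°C past the threshold (adjusted p of 0.724, 0.671, 0.578 and 0.542 from limma). Replicates 1 and 2 were far apart there: -3.41 and -1.24, -2.70 and -1.47, -2.47 and -1.56, and -2.50 and -0.25. In TOT22 replicate 2 petL, petG and psbT were dim, at 4.27, 4.22 and 4.54. The SEs of the differences ran from 0.33 to 0.67, so equal loading at both temperatures was not shown.

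Splitting the plastid genes by complex, a grouping chosen after their values were seen, gave medians from -0.42 to -1.68. The 6 cytochrome b6f genes had the lowest median, -1.68, with 5 called lower, and their median was -2.71 in replicate 1 and -0.92 in replicate 2. petA, which encodes cytochrome f, was the exception among them at -0.35. The 15 photosystem II genes had a median of -0.68 with 5 called, and spanned psbA at -2.38 to psbZ at -0.06. Those of photosystem I, 7 in number, had a median of -0.70 with 2 called, and spanned psaC at -1.85 to psaB. The 10 genes of the NDH complex, which returns electrons around photosystem I, had a median of -0.84, from ndhG at -1.70 to ndhC at -0.07. ATP synthase genes were nearest to the average with a median of -0.42, and of these atpE and atpB lay at -0.04 and -0.15 while atpF lay at -1.04. Plastid ribosomal protein genes had a median of -0.79 over 15 genes, with 6 called, from rpl20 at -1.75 to rps18 at -0.24. The 4 plastid RNA polymerase genes had a median of -0.53, and rbcL, which encodes the large subunit of Rubisco, had a loading of -0.57.

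Genes of 1 plastid transcription unit were all below the average, and differences between them were not tested. In the psbB unit, psbB had a loading of -2.06, psbT of -2.17, psbH of -1.72, petB of -1.16 and petD of -1.82, and psbN, read from the other strand between them, of -1.29. petD was at -3.15 in replicate 1 and -0.50 in replicate 2, since its total signal was 6.76 and 4.40 while its polysome-bound signal was 3.61 and 3.90. These genes were chosen after their values were seen.

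Most plastid mRNAs were closer to the array average at 38°C than at 22°C. Their median at 22°C was -1.12, with 53 of 69 past the adjusted threshold below the average. Replicate medians were -1.24 and -0.92 at 22°C and -1.01 and -0.58 at 38°C, so they overlap between the temperatures. Of the 69 genes, 51 had a higher loading at 38°C, as did 6420 of all 13350 genes. Over all genes, 3.84% passed above the average at 22°C and 4.48% below it. The median of the plastid differences was 0.39, but that of the 6 cytochrome b6f genes was -0.37, with 4 of them lower at 38°C. Only 1 difference passed its test, that of psaB, whose loading went from -0.81 at 22°C to 0.01 at 38°C (difference 0.82, SE 0.16, adjusted p = 0.0481 from limma).

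Mitochondrial mRNAs were low on polysomes as well. All 16 mitochondrion-encoded genes had a loading below 0 at 38°C, 13 past the adjusted threshold and 5 of them at least 2-fold, with a median of -0.74 (-0.98 in replicate 1 and -0.69 in replicate 2), which became 0.12 when scaled to the spike-ins. Among all genes 10.4% passed below the average at 38°C, and 1.34% at 2-fold. At 22°C the median of the list was -0.27 and 5 passed, against 4.48% of all genes. The loading at 38°C was the lower one for 14 of the 16, but the difference passed its test for nad6 alone. Both nad6 and cox2, described below, were dim at 22°C. The part of dim signals in the median and counts at 22°C was not tested. The total signal of 15 of these 16 genes was brighter in TOT38 replicate 1 than in replicate 2, by a median of 1.27, and 14 were brighter in PB38 replicate 1, by a median of 0.64.

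cox2, subunit 2 of cytochrome c oxidase, read 7.95 and 5.89 in TOT38 and 6.0 and 4.51 in PB38. Replicate 1 was far brighter than replicate 2 in both groups, so the values overlap, yet polysome-bound RNA was dimmer within each seedling sample, and the loading was -1.66 (SE 0.17, n = 2, adjusted p = 0.00036 from limma) against -0.70 at 22°C, where it was dim (4.11 and 3.63 in TOT22). nad6, a subunit of NADH dehydrogenase on a probe set that matches several transcripts, read 9.31 and 5.61 in TOT38 and 7.33 and 4.28 in PB38, with a loading of -1.65 (SE 0.15, adjusted p = 0.000211 from limma). The difference between the temperatures was -1.45 (adjusted p = 0.0236 from limma), but at 22°C nad6 was dim, at 3.41 and 3.44 in TOT22 and 3.23 and 3.21 in PB22, so that its loading of -0.21 there and the size of the difference are uncertain. Among the others, cox1 had a loading of -1.45, nad1 of -1.31 and ccb382 of -1.03, while nad7 was nearest to the average at -0.22 (adjusted p = 0.193 from limma). Of the 8 NADH dehydrogenase genes, grouped after their values were seen, 7 passed the adjusted threshold below the average at 38°C and 1 at 22°C. The shares over all genes were 10.4% and 4.48%. How far dim signals at 22°C, as in nad6, lowered the count there was not tested.

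A copy of the mitochondrial genome lies in chromosome 2 of this species, and loci from that stretch were low on polysomes too. AT2G07707, on a probe set that matches several transcripts, read 9.08 and 7.66 in TOT38 and 6.66 and 5.21 in PB38. The total values lay above the polysome-bound ones, and the loading of -2.43 (SE 0.11, adjusted p = 1.27e-05 from limma) was the third lowest of all named genes. Both replicates gave nearly the same value, -2.42 and -2.45. At 22°C its loading was -0.71, and the difference was -1.72 (SE 0.15, adjusted p = 0.00538 from limma). It was dim at 22°C, at 4.65 and 4.53 in TOT22 and 3.99 and 3.77 in PB22, so the size of the difference is uncertain. Over the 36 named loci from AT2G07600 to AT2G07799, a range chosen after its values were seen, the median loading was -0.30, with 5 called lower, and 16 past the adjusted threshold below the average and 0 above it. Of all genes 1.34% were called lower and 10.4% passed below. AT2G07777 at -1.42 and AT2G07751 at -1.30 also had differences from 22°C that passed (-1.25 and -1.13, adjusted p of 0.0274 and 0.0378 from limma). Probe sets shared by several transcripts cannot tell the nuclear copy from the mitochondrial gene.

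**Figure D2:**
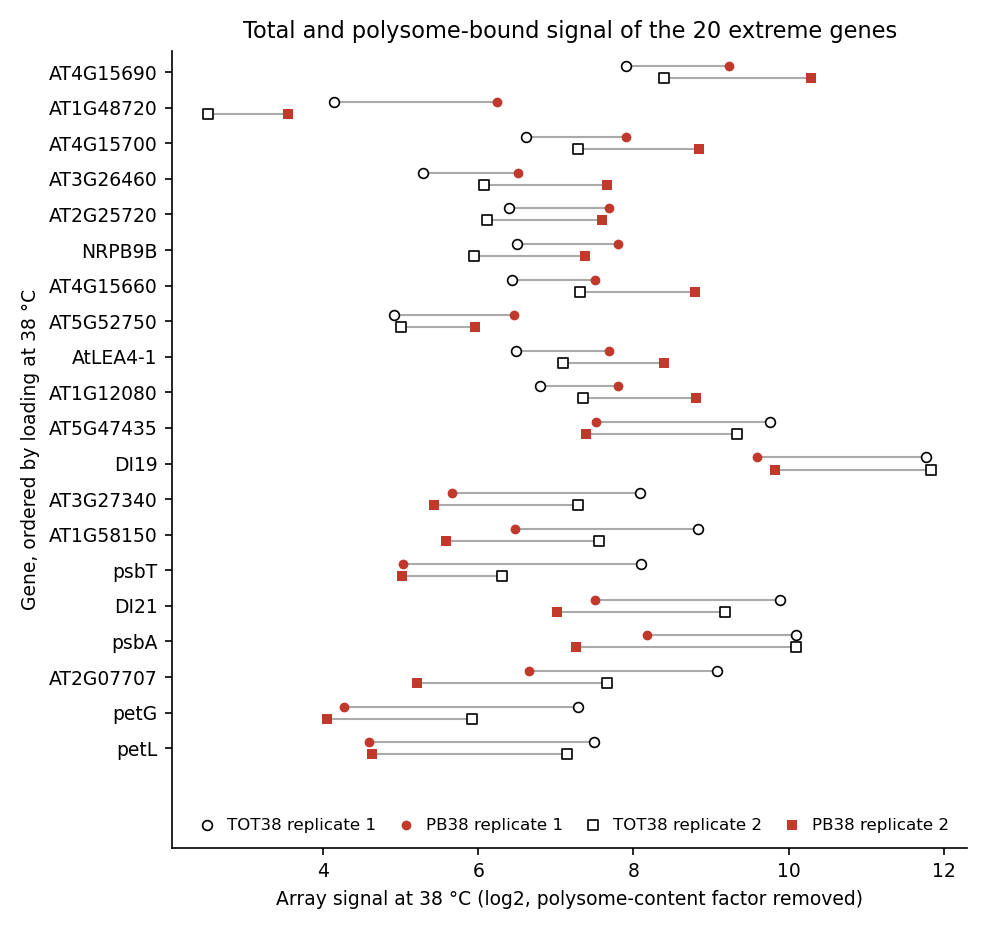
Signals at 38°C (log2, factor removed, x axis) of the 10 named genes with the highest and the 10 with the lowest loading (y axis), open symbols for TOT38 and red for PB38, circles for replicate 1 and squares for replicate 2, each line joining the arrays of 1 seedling sample. In the upper 10 genes the red symbol is to the right in both replicates and in the lower 10 to the left, as the rule that chose them requires. AT1G48720 is the dimmest and most divided, at 4.14 and 2.52 in TOT38.

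Nuclear mRNAs with a low loading included several that were as low at 22°C. DI19, a zinc finger protein named for its induction by drought, read 11.77 and 11.84 in TOT38 and 9.59 and 9.82 in PB38. The replicates were close and the groups far apart, with a loading of -2.10 (SE 0.12, n = 2, adjusted p = 5.43e-05 from limma), or 4.28-fold lower than the average, and of -2.05 at 22°C. DI21, also named for drought, read 9.89 and 9.18 in TOT38 and 7.51 and 7.01 in PB38, with a loading of -2.27 (SE 0.15, adjusted p = 8.4e-05 from limma) and -2.01 at 22°C. AT5G47435 had loadings of -2.09 and -2.05 at 38°C and 22°C, and AT3G27340 of -2.14 and -2.37. For these 4 genes the difference between the temperatures had a size of 0.05 to 0.26 and adjusted p-values from 0.527 to 0.908 by limma. AT1G58150, with -2.16 at 38°C and -1.50 at 22°C, had a difference of -0.67 (adjusted p = 0.0846 from limma).

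Other nuclear mRNAs stood at the average at 22°C and well below it at 38°C. CHLM, the methyltransferase of magnesium protoporphyrin on the way to chlorophyll, read 11.65 and 12.15 in TOT38 and 10.29 and 10.59 in PB38. Its total signals were among the bright ones and lay above both polysome-bound signals. The loading was -1.46 (SE 0.11, n = 2, adjusted p = 0.000127 from limma) at 38°C and -0.01 at 22°C, and the difference of -1.45 passed (SE 0.16, adjusted p = 0.0125 from limma). AT5G03050 read 6.79 and 6.34 in TOT38 and 5.83 and 4.93 in PB38, with a loading of -1.18 against 0.38 at 22°C (difference -1.56, SE 0.20, adjusted p = 0.018 from limma). The 10 nuclear photosynthesis genes had a median of -0.04 and 0 were called at 2-fold, but 2 antenna proteins of photosystem II, LHCB4.2 at -0.58 and LHCB4.1 at -0.49, were below the average past the adjusted threshold.

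mRNAs of cytosolic ribosomal proteins, which build the translation machinery itself, spread to both sides of the average. Of 84 genes of the large (60S) subunit with a named probe set, of 137 listed, 35 passed the adjusted threshold below the average and 4 above it, with 5 and 0 at 2-fold, and the median was -0.23. Of 48 genes of the small (40S) subunit, of 96 listed, 10 passed below and 8 above, with 1 and 1 at 2-fold, and the median was -0.03. Scaled to the spike-ins these medians were 0.63 and 0.83. Of all genes 10.4% passed below the average at 38°C and 10.0% above it. At 22°C both lists lay above the average, with medians of 0.17 and 0.24, and 71 of the 84 and 38 of the 48 had a lower loading at 38°C. The difference passed its test downward for 16 and 3 of them and upward for 0 and 0. Over all genes it passed downward for 0.929% and upward for 0.337%. Genes of the 60S list were bright, with TOT38 medians of 10.70 and 10.36.

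AT3G55170, of the 60S list, read 7.21 and 6.53 in TOT38 and 5.39 and 4.94 in PB38. The groups did not overlap, and the loading was -1.70 (SE 0.11, n = 2, adjusted p = 8.4e-05 from limma), against 0.10 at 22°C. Its difference of -1.80 (SE 0.16, adjusted p = 0.00538 from limma) was the lowest of all named genes. AT2G40010, also of the 60S list, had a loading of -1.29 but of -1.59 at 22°C, so it was low at both temperatures. AT5G47700 and AT2G27720 of the same list lay at -1.11 and -1.09, from 0.22 and 0.27 at 22°C, and AT5G48760 lay at -0.83 from 0.54; these 3 genes were chosen after their values were seen. In the 40S list AT5G35530 read 11.81 and 11.73 in TOT38 and 10.79 and 10.73 in PB38, a loading of -1.01 (SE 0.11, adjusted p = 0.000477 from limma). Its replicates were close, and the loading differed from its -0.09 at 22°C by -0.92 (adjusted p = 0.0299 from limma).

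A few ribosomal protein mRNAs went the other way. AT5G39850 of the 40S list read 6.69 and 6.70 in TOT38 and 7.86 and 7.68 in PB38, and its loading of 1.08 (SE 0.13, adjusted p = 0.000634 from limma) was 0.78 at 22°C. AT4G30800 and AT4G34555 of that list, chosen after their values were seen, had loadings of 0.97 and 0.89. The loadings within the 40S list ran from -1.01 to 1.08, and that within the 60S list from -1.70 to 0.79.

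Translation factors had a median of 0.00 over the 12 of 56 listed genes with a named probe set, with 3 past the adjusted threshold above and 4 below. Among all genes 10.0% passed above and 10.4% below. Both ends of the list were called. AT5G19510 read 11.74 and 11.61 in TOT38 and 10.75 and 10.57 in PB38, a loading of -1.01 (SE 0.11, adjusted p = 0.000418 from limma), against -0.02 at 22°C (difference -1.0, adjusted p = 0.0249 from limma). AT5G35680 read 10.01 and 9.99 in TOT38 and 10.94 and 11.08 in PB38, a loading of 1.01 (SE 0.13, adjusted p = 0.000779 from limma), against 0.54 at 22°C. The groups overlapped for neither gene, and the opposite loadings were of the same size. LSM genes, which encode a ring of RNA-binding proteins in decapping and splicing and were chosen after their values were seen, had a median of -0.25 over 6, and LSM3B was called lower at -1.07.

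**Figure D3:**
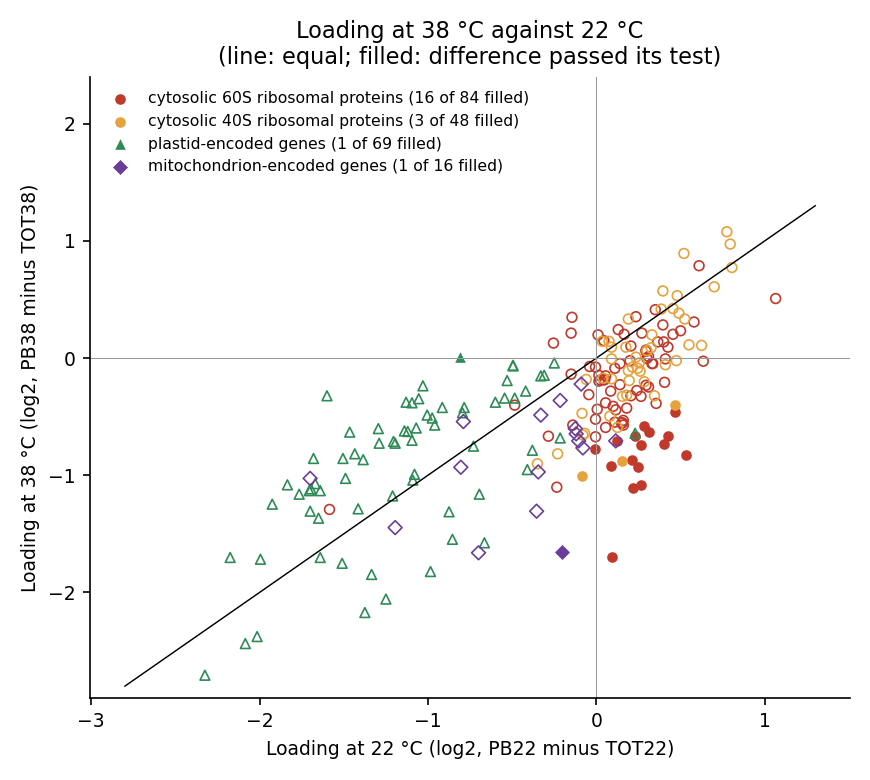
Loading at 22°C (x axis) and 38°C (y axis), log2 against the array average, of ribosomal protein genes of the 60S (red circles) and 40S (orange circles) subunits, plastid-encoded (green triangles) and mitochondrion-encoded genes (purple diamonds), filled where the difference passed its test (16, 3, 1 and 1 genes) and with a line of equal loading. The filled circles lie under the line, and most triangles lie above it.

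At the other end of the range, the highest loadings were of genes known mostly by locus tag. AT4G15690 read 7.91 and 8.40 in TOT38 and 9.23 and 10.29 in PB38. Both polysome-bound signals were above both total ones, and the loading was 1.61 (SE 0.14, n = 2, adjusted p = 0.000211 from limma), or 3.05-fold higher than the average, against 0.66 at 22°C (adjusted p of the difference 0.0563 from limma). Its neighbours on chromosome 4 were also high, AT4G15700 at 1.43, AT4G15660 at 1.29 and AT4G15680, chosen after its value was seen, at 0.90. Beyond them AT4G15640 lay at -0.06 and AT4G15710 at 0.25. If these neighbours are near-identical copies their probes can share signal, and the 4 loadings are then not independent. AT1G48720 had the second highest loading, 1.57, but its probe set matches several transcripts, was dim, and gave 2.10 in replicate 1 and 1.03 in replicate 2. AT3G26460 at 1.40, AT2G25720 at 1.38, AT5G52750 at 1.25 and AT1G12080 at 1.23 complete the top together with genes of the groups below.

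Histone mRNAs were on polysomes more than the average. Of 13 histone genes with a named probe set, of 42 listed, 11 passed the adjusted threshold above the average and 0 below, and the median was 0.72, or -0.15 with the polysome-content factor kept. The share of all genes that passed above was 10.0%. At 22°C the histone median was 0.53, with 8 passing, and 10 of the 13 were higher at 38°C, but 0 differences passed. AT3G53650, a gene of the list, read 4.91 and 4.69 in TOT38 and 6.05 and 6.01 in PB38, a loading of 1.23 (SE 0.11, n = 2, adjusted p = 0.000211 from limma). HTB1, which encodes histone H2B, read 6.97 and 6.87 in TOT38 and 7.85 and 8.10 in PB38, a loading of 1.06 (SE 0.12, adjusted p = 0.000572 from limma). The groups did not overlap for either gene. HTB2, HTB11 and HTB4, named after their values were seen, followed at 0.97, 0.83 and 0.72, and the linker histone HIS1-3 at 0.94. The exceptions were AT5G02570 at 0.03 and HTR12, the centromeric histone H3, at -0.11. All 4 HTB genes and 11 of the 13 histone genes had a higher loading in replicate 2 than in replicate 1.

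Genes of water deprivation, salt, cold and abscisic acid were above the average as well, with a median of 0.72 (-0.15 with the factor kept). The list had 5 genes of 38 with a named probe set, 4 of them past the adjusted threshold above, against 10.0% of all genes. STZ, a zinc finger repressor induced by salt and cold, read 8.85 and 8.38 in TOT38 and 9.46 and 9.08 in PB38, a loading of 0.66 (SE 0.12, n = 2, adjusted p = 0.00412 from limma). It was the only one of the 5 whose difference from 22°C passed, at 0.98 (SE 0.17, adjusted p = 0.0296 from limma), since its loading there was -0.32. COR15B, a chloroplast protein of cold acclimation, read 11.23 and 6.32 in TOT38 and 11.87 and 7.66 in PB38, and COR15A read 11.48 and 8.60 and then 12.13 and 9.38. Their level in the 2 heat-stressed seedling samples thus differed by far more than their loadings of 0.99 and 0.72. LTI30 lay at 0.82 and COR47 at 0.32 (adjusted p = 0.0894 from limma). AtLEA4-1, of the late embryogenesis abundant proteins, which protect cells that lose water, read 6.49 and 7.09 in TOT38 and 7.69 and 8.39 in PB38. Its loading of 1.25 (SE 0.11, adjusted p = 0.000196 from limma) was above its 0.38 at 22°C, with a difference of 0.88 (adjusted p = 0.0321 from limma). LEA4-5, named after its value was seen, lay at 1.13.

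CML37, a calmodulin-like calcium sensor, read 4.92 and 4.74 in TOT38 and 6.16 and 5.96 in PB38, and both seedling samples gave almost the same loading, 1.24 and 1.22 (mean 1.23, SE 0.11, adjusted p = 0.000196 from limma). The difference from 22°C was 1.32 (SE 0.15, adjusted p = 0.0125 from limma), but there CML37 was dim, at 3.13 and 3.22 in TOT22 and 3.07 and 3.11 in PB22. Its loading of -0.09 at 22°C, and with it the size of the difference, is therefore uncertain. Of 7 calmodulin-like genes 4 passed above the average and 0 below, with a median of 0.49. Over all genes 10.0% passed above and 10.4% below. Glutathione transferases, which couple glutathione to toxic compounds, had a median of 0.46 over 14 genes, with 8 past the threshold above it and 1, GSTU18 at -0.76, below. GSTU23 was the one called at 2-fold: it read 5.03 and 5.65 in TOT38 and 5.87 and 7.00 in PB38, a loading of 1.10 (SE 0.15, adjusted p = 0.00108 from limma). Its loading at 22°C was 0.60, and the difference did not pass (adjusted p = 0.212 from limma). Xyloglucan endotransglucosylases, which loosen cell walls, had 4 of 9 genes past the threshold above and 0 below, with a median of 0.22. At 22°C the medians of these 3 lists were 0.24, 0.23 and 0.14, and CML37 alone among their genes had a difference that passed. With the factor kept the medians of these 3 lists at 38°C were below 0.

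Among 45 families of at least 5 nuclear genes that share a symbol stem, examined after the values were known, the ATG stem of autophagy genes had the highest median, 0.80 over 8. Of these, 7 are ATG8 genes, whose small ubiquitin-like products are joined to the autophagosome membrane, and 6 of the 7 passed the threshold above the average, with a median of 0.82. ATG8E had a loading of 1.04, ATG8H of 1.03 and ATG8D of 1.02, each called at 2-fold, while ATG8C lay at 0.24 (adjusted p = 0.16 from limma). NRPB genes, which encode subunits of RNA polymerase II, had a median of 0.65 over 6. NRPB9B among them read 6.50 and 5.95 in TOT38 and 7.80 and 7.38 in PB38, a loading of 1.37 (SE 0.11, adjusted p = 0.000172 from limma) that was 1.02 at 22°C. The VPS stem had a median of 0.50 over 10 genes, with 6 past the threshold above and 1 below. Of these, 8 are of the ESCRT-III families, which bud membranes into endosomes, a subset chosen after its values were seen. It had 6 past the threshold above and 0 below, with a median of 0.55, and VPS24.1 was highest at 0.93. For none of the ATG8, NRPB and ESCRT-III genes did the difference from 22°C pass. Medians at 22°C were 0.63, 0.50 and 0.40. All these medians turn below 0 with the factor kept. Of all genes 10.0% passed above the average at 38°C and 10.4% below it.

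mRNAs of heat shock proteins, chaperones that hold or refold damaged proteins, mostly had loadings near the average. Small heat shock proteins had 9 named genes, of 17 listed, which had a median of 0.26 with 0 called at 2-fold. The median was 0.13 in replicate 1 and 0.26 in replicate 2. Only AT4G21870 passed the adjusted threshold, at 0.77 (SE 0.15, adjusted p = 0.00656 from limma), and it was the dimmest, at 7.74 and 7.95 in TOT38. The other 8 read 12.89 to 14.12 in TOT38, near the top of the array, whose brightest probe sets reached a mean of 14.1, and had loadings from -0.31 to 0.37. How far such bright signals can show a difference was not tested. Among 5 genes of HSP70, HSP90, HSP100 chaperones and helpers of these, 0 passed, with a median of 0.11 that was -0.03 in replicate 1 and 0.12 in replicate 2. Hop2 and Hop3, which link HSP70 to HSP90, lay at -0.11 and -0.08. No gene of the list of heat stress transcription factors had a named probe set.

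**Figure D4:**
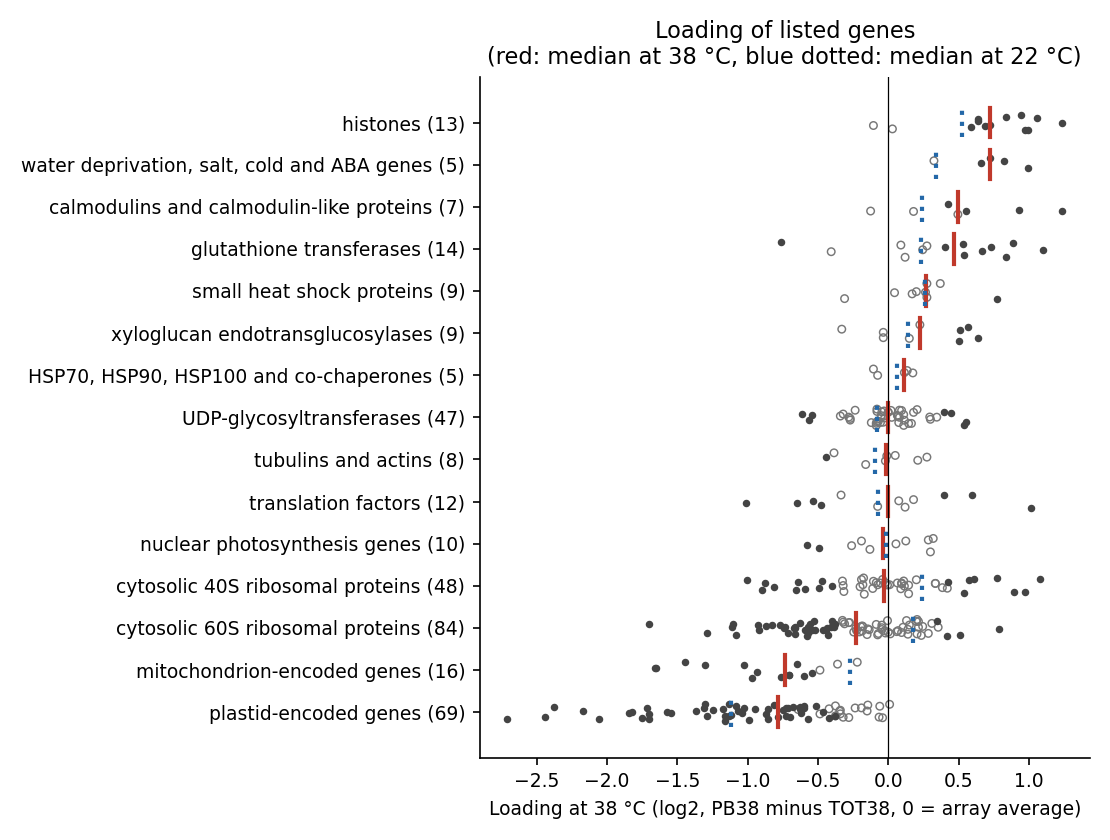
Loading at 38°C (x axis, log2 against the array average) of the genes in 15 lists (y axis, number of named genes in brackets), filled where the adjusted p was under 0.05, with the median at 38°C as a red bar and that at 22°C as a blue dotted bar. Plastid and mitochondrial genes lie lowest, with medians of -0.79 and -0.74, and histones and genes of water deprivation, salt, cold and abscisic acid highest, each with 0.72; with the polysome-content factor kept all medians lie below 0, and scaled to the spike-ins all lie above it.

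The genes that the study assayed by other methods and that had a named probe set were 5 of 24. Besides STZ, GH3.3, an enzyme that joins auxin to amino acids, read 7.70 and 6.72 in TOT38 and 8.07 and 7.61 in PB38, with a loading of 0.63 (SE 0.14, adjusted p = 0.0099 from limma) and a difference of 0.86 from 22°C that did not pass (adjusted p = 0.0595 from limma). AT5G02940 had a loading of 0.10 at 38°C and of -0.83 at 22°C, and its difference of 0.92 passed (adjusted p = 0.0285 from limma). AT3G28900 of the 60S list and AT2G21580 of the 40S list lay at -0.87 and -0.40, from 0.21 and 0.47 at 22°C, and both differences passed (-1.08 and -0.87, adjusted p of 0.0249 and 0.039 from limma).

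Genes with a called difference are chosen for a gap between both loadings, so their place at either temperature is a description. The 45 genes with a difference above 0 had a median loading of -0.47 at 22°C and of 0.42 at 38°C, and 39 of them were above 0 at 38°C against 2 at 22°C. For the 124 genes with a difference below 0 the medians were 0.09 and -0.92, and 0 of them were above 0 at 38°C against 73 at 22°C. Ribosomal proteins made up 19 of the 124, while the 60S and 40S lists hold 84 and 48 of the 13350 genes. The named genes with the highest differences were, after AT1G48720 and CML37, AT5G53680 (1.16), AT3G02760 (1.11) and AT3G09160 (1.09). AT5G53680 was dim at 22°C (3.97 and 4.13 in TOT22) and bright at 38°C (10.39 and 9.01 in TOT38), where its loading was 0.20. AT3G02760 had loadings of -0.60 and 0.52. AT3G09160 went from -1.52 to -0.42, and was dim at 38°C, with 4.01 and 4.14 in TOT38. Dim probe sets spread less: the SD of the loading at 38°C was 0.16 in the dimmest of 5 equal groups of probe sets and 0.47 in the brightest, and 1 of the 370 calls fell in the dimmest.

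The median loading at 38°C was much the same at every genomic span (introns included), whereas at 22°C longer genes had lower medians, and calls at 2-fold at 38°C were fewest in the 2 longest groups. The groups cover the 12218 nuclear protein-coding genes, without plastid, mitochondrial and pseudogene entries. In 5 equal groups of these, from the shortest spans (78 to 1273 bp) to the longest (3290 to 26499 bp), medians at 38°C were -0.01, 0.01, -0.02, -0.02 and 0.02. The medians at 22°C were 0.07, 0.07, 0.03, -0.03 and -0.08. Among them 120 genes had a difference below 0, of which 25, 38 and 35 were in the 3 shorter groups and 7 in the longest. Of the 43 with a difference above 0, 22 were in the longest. Calls at 2-fold at 38°C were 23, 10, 5, 1 and 0 higher and 34, 39, 47, 17 and 5 lower from the shortest to the longest group.

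**Figure D5:**
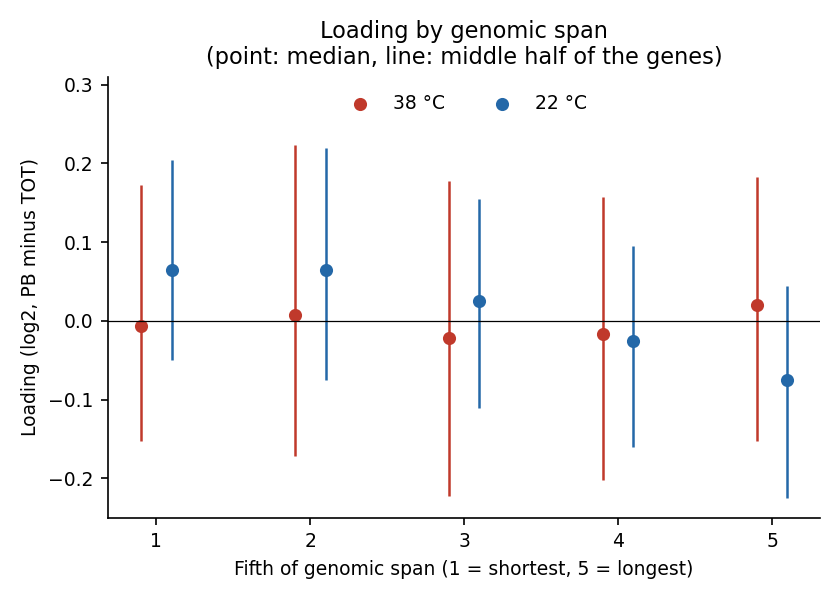
Median loading (points, y axis, log2 against the array average) with interquartile range (lines) of 12218 nuclear protein-coding genes. They are in 5 equal groups of genomic span (x axis, shortest to longest), red for 38°C and blue for 22°C. The medians at 38°C stay between -0.02 and 0.02, and those at 22°C go from 0.07 to -0.08.

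Pseudogenes and transposable element genes, 989 in number, had a median of -0.06, with 25 past the adjusted threshold below the average and 2 above. Over all genes 10.4% passed below and 10.0% above, so few of this list passed either way. The list was dim, with TOT38 medians of 3.31 and 3.27. AT5G04880 and AT1G35612 were called lower, at -1.18 and -1.13, from -0.90 and -1.89 at 22°C. Several families lay at the average with few genes past the threshold: UDP-glycosyltransferases had a median of 0.00 over 47 genes, expansins of 0.06 over 18, cytochrome P450s of -0.08 over 23, and tubulins and actins of -0.02 over 8. Medians of the 5 nuclear chromosomes ran from -0.01 to 0.00.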

How the data were processed

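The authors hybridized labelled total and polysome-bound RNA to ATH-1 arrays and deposited log2 values. The submitters' processing notes name RMA and affy and give no version. The deposited PB38 columns already held the authors' polysome-content factor (0.558 and 0.538), whose log2 was subtracted here. Loading was fitted on all 8 arrays by lmFit and eBayes (limma 3.58.1, R 4.3.3) with 1 term per seedling sample and 1 PB-against-TOT term per temperature (2 residual degrees of freedom, 7.78 prior), with Benjamini-Hochberg adjustment over 22746 probe sets. The 64 control probe sets were left out. The methods take total and polysome-bound RNA from the same biological samples, so replicate numbers pair the arrays, and deviations from the group means correlated within pairs (r = 0.76 at 38°C, r = 0.79 at 22°C). With 2 seedling samples per temperature, precision is limited.

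Probe sets were named where the platform annotation gave 1 gene. Of 13513 such probe sets, 13436 matched RefSeq genes (assembly TAIR10.1), from which symbols, chromosomes, gene types and spans were taken. A gene with several probe sets was given by the one brightest over all arrays. Named were the 10 highest and 10 lowest loadings of one sign in both replicates, up to 2 each per list, the 5 highest and 5 lowest differences and the genes assayed by the study, 44 in all. Others are said to be chosen after their values were seen. The comparison and the lists were chosen with earlier results of these data known. Of 39 lists 24 held at least 3 named genes. Lists of heat stress transcription factors, wounding and jasmonate genes, MYB and AP2/ERF factors, SAUR and arabinogalactan proteins, aquaporins, cyclins, ABC transporters and ubiquitins held 0. Coding length, base content near the start codon and hydropathy were not analysed here. The fits were tested on simulated data. Alternatives covered pairing, arrays in the fit, factor, scaling, a filter at 6 on the log2 scale, variance model, a 1.5-fold threshold, 1 value per gene and single arrays. Summaries used pandas 2.3.3 and numpy 2.4.6 under Python 3.11.15, and plots matplotlib 3.10.9.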

Additional observations from a re-analysis of the deposited data

Results flagged for a closer look

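For 17 of the named genes the loading at 38°C differed from that at 22°C by limma's test of the difference, fitted with seedling samples as blocks (adjusted p under 0.05, n = 2 seedling samples per temperature). The naming rule itself took in genes for the lowest or highest differences, so 17 is not a rate. These were AT3G55170, AT2G07707, AT5G03050, CHLM, nad6, AT3G09160, AT3G02760, AT5G53680, CML37 and AT1G48720. Over all genes the difference passed above 0 for 0.337% and below 0 for 0.929%. Differences are on the log2 scale, 38°C minus 22°C. Below 0 were AT3G55170 at -1.80, AT2G07707 at -1.72, AT5G03050 at -1.56, CHLM at -1.45, nad6 at -1.45, AT3G28900 at -1.08, AT5G19510 at -1.0, AT5G35530 at -0.92 and AT2G21580 at -0.87. Above 0 were AtLEA4-1 at 0.88, AT5G02940 at 0.92, STZ at 0.98, AT3G09160 at 1.09, AT3G02760 at 1.11, AT5G53680 at 1.16, CML37 at 1.32 and AT1G48720 at 1.46. Without the block, without either PB38 array or against a 1.5-fold difference, limma called 0 differences in each direction, with 1310, 3913, 2981 and 218 probe sets at an unadjusted p under 0.05. AT2G07707, nad6 and AT1G48720 are on probe sets that match several transcripts. AT2G07707, nad6, AT5G53680, CML37, AT3G09160 and AT1G48720 had dim signals, of 4.14 or less on the log2 scale, on at least 1 array.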

How the results depend on the processing

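Counts are given as higher and lower for the loading at 38°C, against 70 and 300 probe sets, and as above and below 0 for its difference from 22°C, against 86 and 206. With no replicate block, which drops the pairing of total and polysome-bound arrays, they were 21 and 145, and 0 and 0. The 4 heat-stressed arrays alone with no replicate block gave 0 and 0 for the loading, with 2611 at an unadjusted p under 0.05. With the factor kept the counts were 0 and 6984, and 1 and 21199. Scaled to the poly-A spike-ins they were 6946 and 17, and 15566 and 5. Limma's treat test against 1.5-fold gave 18 and 152, and 0 and 0. With 1 value per gene they were 41 and 177, and 43 and 126, over fewer features. The difference alone moved with arrays centred on their medians (133 and 508), cyclic loess (48 above), bright probe sets alone (572 and 705) and a variance trend with robust eBayes (632 and 816). Leaving out 1 array gave 0 to 70 higher, 0 to 301 lower, 0 to 251 above and 0 to 328 below, the zeros being those without either PB38 array, where 1 seedling sample is left at 38°C and the 22°C arrays give the spread. Without PB22 replicate 2 the difference had 45 above and 135 below. Of 49 results for named genes none counted as reversed. The loadings at 38°C among them were named at a size of 1 or more on the log2 scale. The factor and the spike-in scaling shift loadings by -0.87 and 0.86, so these 2 settings could not turn them. With the factor kept 20 results were weaker, scaled to the spike-ins 11, and against 1.5-fold 23. The heat-stressed arrays alone with no block left 29 of 34 weaker. With no replicate block 28 lost their call, and without either PB38 array 43. Medians of 24 lists moved by more than their replicate spread with the factor kept and with spike-in scaling (24 each), 11 of 23 with bright probe sets alone, 8 without either PB38 array, and 3 each with median centring and cyclic loess. The cause of these changes was not tested, other than the fixed shifts of the factor and of the spike-in scaling.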

Other observations

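The poly-A spike-in controls, 24 probe sets, read 7.10 and 6.73 on the log2 scale in TOT38, 5.98 and 6.14 in PB38, 6.26 and 6.21 in TOT22 and 6.36 and 6.09 in PB22. The hybridization controls, 18 probe sets added after labelling, read 10.07 and 9.92 in TOT38 and 10.09 and 9.84 in PB38. The 3′ minus 5′ signal of the actin control was 3.27 and 2.85 in TOT38 and 3.30 and 3.48 in PB38.

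Families at the low end of those sharing a symbol stem, after LSM at a median loading of -0.25, were IAA at -0.15 over 7 genes, GLR at -0.12 over 8, CHX at -0.11 over 7 and SETH at -0.11 over 5. Of these, 1 IAA gene passed the adjusted threshold above the average and 1 below, 1 SETH gene passed below, and 0 of the others passed.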
